A study of Rattus norvegicus with 3 samples.

Results

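The genes described here are 9 rat genes of renal glucose production, of fructose use and of their control, out of 14179 genes tested in kidney RNA, of which 8908 had a RefSeq symbol and the rest were kept under the name of their accession or probe. They were chosen by name, and their probes were found through the RefSeq accession that the array gives each probe. After loess normalization of the dyes, Khk, which starts the use of fructose, was lower in rats given gamma-aminobutyric acid (GABA), but it was higher where the arrays were only centred or not normalized. Tkfc, which completes the entry of fructose carbon into the shared pathway, was higher either way. Centring alone and no normalization also raised the median of all genes. The 7 genes of glucose production and its control did not pass the test after loess, but 4 of them passed as higher with median centring and 6 without normalization, where 4956 and 8010 of the 14179 genes did so. Among them, Pck1 and G6pc1 differed between the arrays more than most genes did, G6pc1 by its brighter probe.

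Beside the liver, the kidney is the organ that can release glucose into the blood. In the proximal tubule of the cortex, lactate, glutamine and glycerol are turned into glucose. Pyruvate carboxylase (Pc) makes oxaloacetate in the mitochondrion, and the carboxykinases of the cytosol (Pck1) and of the mitochondrion (Pck2) turn it into phosphoenolpyruvate. Fructose bisphosphatase (Fbp1) removes a phosphate further up the path. The transporter Slc37a4 then carries glucose phosphate into the endoplasmic reticulum, where glucose-6-phosphatase (G6pc1, formerly G6pc) frees the glucose. Fructose enters through ketohexokinase (Khk) and triokinase (Tkfc), and the coactivator Ppargc1a raises transcription of the glucose-making genes in fasting. The same genes are active in liver.

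Male Sprague-Dawley rats, 5 weeks old when obtained, drank water with 200 ppm GABA for 3 weeks (the group G200) or water without it (the negative control, 0 ppm). RNA of kidney tissue labelled as a region without tumor was hybridised to 3 Agilent arrays of 2 colours. Cy3 (green) always carried the control and Cy5 (red) always carried G200. With no dye swap, unequal behaviour of the dyes and the effect of GABA cannot be told apart in a ratio. All 3 arrays lay on 1 slide and were read in 1 scan. Of 42877 spots other than controls, 59.8%, 62.7% and 62.3% were well above background in green on replicates 1, 2 and 3, and 63.0%, 56.6% and 61.0% were in red. Over 1390 probes with 5 or more spots, the green channel differed between arrays about as little as the spots of a probe did within an array, with a median F of 1.14. The same ratio was 14.8 in red. The control was therefore counted as 1 sample, and the spread among control rats is not part of the tests.

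All 9 genes were well above background in both colours on all 3 arrays. They were read by 10 probes of 1 spot each, 2 of them for G6pc1, where the brighter probe stands for the gene. A log2 ratio below is that of G200 over control after loess normalization of the dyes, and a level is the log2 normalized intensity of a channel. Over all genes, 5318 of 14179 (37.5%) passed an adjusted p under 0.05 in limma's test of the mean ratio against 0, 1629 (11.5%) as higher in G200 and 3689 (26.0%) as lower. Of the 9 genes, 2 passed, 1 in each direction, a smaller share than among all genes after loess. With median centring 6 of the 9 and 6224 of all genes passed, and without normalization 8 and 8314. Under both of these treatments the share was larger among the 9. Shares of 9 genes are coarse, and none of them was tested against the share over all genes. The median log2 ratio of the 9 genes after loess was 0.09, beside -0.05 over all genes tested. It was 0.04, 0.03 and 0.08 without replicates 1, 2 and 3. By array the median of the 9 was 0.19, -0.0028 and -0.01 on replicates 1, 2 and 3.

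**Figure D1:**
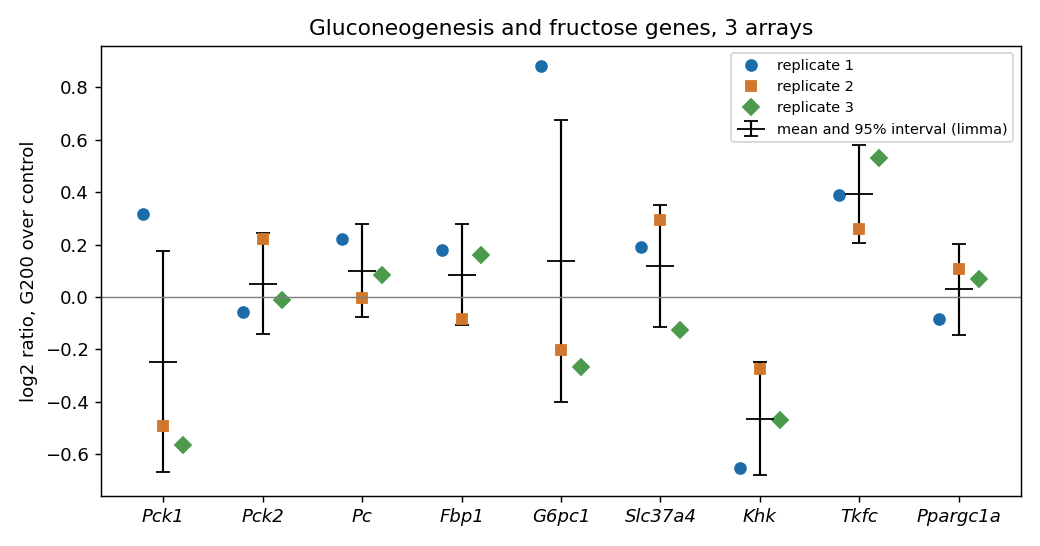
Log2 ratio of G200 over control for the 9 genes (vertical axis), with a point for each of the 3 arrays and the mean with its 95% interval from limma as a bar. After loess, the interval lies below 0 for Khk and above 0 for Tkfc, and the points of Pck1 and G6pc1 lie on both sides of 0 with replicate 1 highest.

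The promoters of 4 genes are shown. Khk and Tkfc were taken because they passed the test, and Pck1 and G6pc1 because their ratios had the same order over the arrays. Each run is the 250 bases before the start of the gene, 5′ to 3′ along the gene's own strand, from RefSeq on the build GRCr8. They lie at chr3:182348322-182348571 (plus strand) for Pck1, chr10:86807409-86807658 (plus) for G6pc1, chr6:31175482-31175731 (minus) for Khk and chr1:216677658-216677907 (minus) for Tkfc. Capitals mark matches on either strand to 3 short motifs. The core of the cAMP response element was searched as TGACGT. A core of the HNF1 element was searched as GTTAAT. The box that places the start of transcription was searched as TATAAA. No matches to different motifs overlap in these windows.
Pck1: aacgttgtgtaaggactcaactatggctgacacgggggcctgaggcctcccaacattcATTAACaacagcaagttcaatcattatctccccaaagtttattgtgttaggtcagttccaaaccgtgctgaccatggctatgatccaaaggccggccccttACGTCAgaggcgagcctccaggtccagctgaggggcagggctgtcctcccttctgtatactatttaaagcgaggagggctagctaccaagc
G6pc1: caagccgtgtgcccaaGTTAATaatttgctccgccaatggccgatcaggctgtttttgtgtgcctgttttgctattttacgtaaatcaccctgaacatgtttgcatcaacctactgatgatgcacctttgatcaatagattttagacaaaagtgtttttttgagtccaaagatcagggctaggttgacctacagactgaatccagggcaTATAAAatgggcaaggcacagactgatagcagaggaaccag
Khk: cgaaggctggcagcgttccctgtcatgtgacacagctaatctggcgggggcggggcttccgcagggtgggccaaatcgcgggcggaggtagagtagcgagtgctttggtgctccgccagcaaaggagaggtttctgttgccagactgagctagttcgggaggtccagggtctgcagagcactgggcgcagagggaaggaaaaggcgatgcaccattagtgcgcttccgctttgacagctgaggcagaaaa
Tkfc: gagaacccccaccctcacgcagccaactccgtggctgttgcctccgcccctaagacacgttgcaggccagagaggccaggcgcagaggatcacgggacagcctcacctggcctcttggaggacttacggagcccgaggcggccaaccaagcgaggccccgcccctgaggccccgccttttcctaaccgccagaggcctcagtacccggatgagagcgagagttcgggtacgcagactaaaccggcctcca

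Pck1 held the cAMP response element core at bases -91 to -86 from the start and the HNF1 core at -192 to -187. G6pc1 held the HNF1 core at -234 to -229 and TATAAA at -41 to -36. Pck1 and G6pc1 thus both held the HNF1 core, on opposite strands, and the windows of Khk and Tkfc held none of these letters. A link between the motif and the order over the arrays was not tested. The promoter table held 8 of the 9 genes in 9 entries, with no entry for Pc. Of these 9 entries, 4 had TGACGT, namely Pck1, Ppargc1a and both entries of Slc37a4, which overlap and share 1 match. Of all 33469 promoters of the same length, 6.95% had TGACGT, 6.45% GTTAAT and 12.9% TATAAA. The forkhead core TGTTTAC was in none of the 9 entries and in 3.21% of all promoters. G and C made up 66% of the bases for Tkfc and 60.4% for Khk, against 43.2% for G6pc1, 52% for Pck1 and a median of 51.2% over all promoters. A match is a description of letters, not a binding site or a cause, and no match says only that these letters are not in the window.

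Ketohexokinase (Khk) adds the phosphate that commits fructose to breakdown. The level of Khk was 14.57, 14.38 and 14.39 in the control channel of replicates 1, 2 and 3, and 13.92, 14.11 and 13.92 in the G200 channel. After loess the G200 level lay below the control level on every array. The log2 ratio was -0.65, -0.27 and -0.47 on replicates 1, 2 and 3. Khk thus fell on all 3 arrays, and its mean log2 ratio was -0.46 ± 0.19 (SD, n = 3; 95% interval -0.68 to -0.25; fold 0.725; adjusted p = 0.0107). In these bulk RNA samples, fewer cells of a type and less RNA per cell cannot be told apart.

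The direction of Khk depended on the normalization of the dyes. Before any correction its green spot read 14586, 15346 and 14043 intensity units on replicates 1, 2 and 3. Its red spot read 30795, 20259.5 and 23662 units, brighter than green on every array. With each array only centred on its median in place of loess, the mean log2 ratio of Khk was 0.39 (adjusted p = 0.04996), and without any normalization between the dyes it was 0.74 (adjusted p = 0.0170). These treatments also moved the median of all genes to 0.27 and 0.62, and relative to that median Khk was at 0.12 in both. The log ratio of Feature Extraction gave -0.35 for Khk (adjusted p = 0.0701), and without replicate 3 the loess value was -0.46 (adjusted p = 0.0809). Over all alternatives, the methods' tests without adjustment included, the p of Khk ran from 0.00629 to 0.159, and the lowest came from a test that treats the 3 control readings as 3 samples.

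Triokinase (Tkfc) phosphorylates glyceraldehyde that comes from fructose. The level of Tkfc was 7.39, 7.23 and 7.30 in the control channel of replicates 1, 2 and 3, and 7.78, 7.49 and 7.83 in the G200 channel. The G200 channel was above the control channel on every array. The log2 ratio was 0.39, 0.26 and 0.53. Tkfc rose by a mean of 0.39 ± 0.13 on the log2 scale (SD, n = 3; 95% interval 0.21 to 0.58; fold 1.31; adjusted p = 0.0117). The probe was dim, with green spots of 105, 102 and 102 units over a local background of 23, 24 and 24. Its red spots read 355, 169 and 289 units over 45, 44 and 50. An offset of 50 units added before the logarithm draws the ratios of such spots toward 0, and with an offset of 0 the mean log2 ratio of Tkfc was 0.57. It was higher in G200 under all 4 treatments of the dyes, at 0.82 with median centring, 1.17 without normalization and 0.72 in the deposited log ratio, each past the threshold in limma. Median centring and no normalization also raised the median of all genes, to 0.27 and 0.62. Relative to the median of all genes, Tkfc was at 0.44 after loess, 0.55 under both of these and 0.74 in the deposited log ratio. Without replicate 3 the mean log2 ratio of Tkfc was 0.32 and did not pass (adjusted p = 0.103), and its p ran from 0.00656 to 0.167 over all alternatives.

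**Figure D2:**
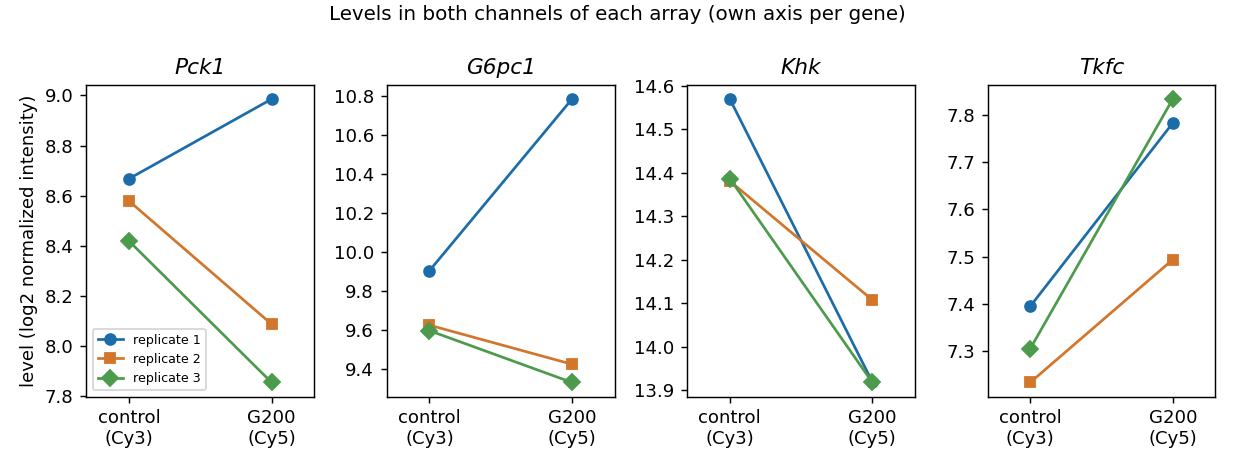
Levels (log2 normalized intensity, vertical axis) of Pck1, G6pc1, Khk and Tkfc in the control channel and the G200 channel, with a line for each of the 3 arrays and an axis for each gene. After loess normalization the lines of Khk fall and those of Tkfc rise on all 3 arrays, while Pck1 and G6pc1 rise on replicate 1 and fall on replicates 2 and 3.

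The cytosolic carboxykinase Pck1 is the step of glucose production most under hormonal control. Its level in the control channel was 8.67, 8.58 and 8.42 on replicates 1, 2 and 3. In the G200 channel it was 8.99, 8.09 and 7.85. Replicate 1 had the highest G200 level, above all control levels, and the other two lay below them all. The log2 ratio of Pck1 was 0.32, -0.49 and -0.56, with a mean of -0.25 ± 0.49 (SD, n = 3; 95% interval -0.67 to 0.18; adjusted p = 0.299). Without replicate 1 the mean was -0.53 and passed the test (adjusted p = 0.00411), while without replicate 2 or 3 it was -0.12 or -0.09. With median centring it was 0.33 and without normalization of the dyes 0.68, neither past the threshold.

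G6pc1 encodes the enzyme that releases free glucose. Its level in the control channel was 9.91, 9.63 and 9.60 on replicates 1, 2 and 3. In the G200 channel it was 10.79, 9.43 and 9.33. Again the G200 level of replicate 1 stood above all control levels and the other two lay below them all. The log2 ratio of G6pc1 was 0.88, -0.20 and -0.27, with a mean of 0.14 ± 0.64 (SD, n = 3; 95% interval -0.40 to 0.68; adjusted p = 0.646). Without replicate 1 it was -0.23 (adjusted p = 0.0987). With median centring it was 0.81 and did not pass, and without normalization of the dyes it was 1.17 and passed as higher (adjusted p = 0.0225). The dimmer probe of G6pc1, set beside it after the data were seen, read -0.18, -0.17 and -0.01, so the probes differed on replicate 1. That probe was close to background, with green spots of 60.5, 63 and 57 units over 24, 25 and 28.

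Pck1 and G6pc1 had the same order over the arrays, with replicate 1 highest and replicate 3 lowest. Their SDs stood at the 97.8 and 98.7 percentile of the SDs of all genes tested, and those of the other 7 genes lay between the 40.5 and 83.5 percentile. For G6pc1 this is the SD of the brighter probe (0.64), while that of the dimmer probe, close to background, was 0.10. Each G200 sample was on an array of its own, so rat and array cannot be told apart in these SDs. Replicate 1 also had the highest ratio for 9 of 21 proximal tubule markers, 6 of 8 markers of the loop of Henle and distal tubule and 4 of 6 podocyte markers, and for 4455 of the 14179 genes. The G200 level of liver markers, given below, was also highest on replicate 1 and lowest on replicate 3. The part of these markers in the values of Pck1 and G6pc1 was not tested.

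The remaining 5 genes differed less between arrays, and none passed the test after loess. Pc, the entry step from pyruvate, had log2 ratios of 0.22, -0.0028 and 0.08 and a mean of 0.10 ± 0.11 (SD, n = 3; adjusted p = 0.313). Pck2, the mitochondrial carboxykinase, had -0.06, 0.22 and -0.01 and a mean of 0.05 ± 0.15 (adjusted p = 0.635). Fbp1 had 0.18, -0.08 and 0.16 and a mean of 0.09 ± 0.15 (adjusted p = 0.422). All 3 enzymes thus had at least 1 array on each side of 0. Slc37a4, the transporter that serves G6pc1, had 0.19, 0.30 and -0.13 and a mean of 0.12 ± 0.22 (adjusted p = 0.356). The coactivator Ppargc1a had -0.09, 0.11 and 0.07 and a mean of 0.03 ± 0.10 (adjusted p = 0.763). Its spots were dim, between 64.5 and 69 units in green over a background of 25 to 26. With median centring Pck2 (0.70), Pc (0.74), Fbp1 (0.91) and Slc37a4 (0.87) passed as higher, and Ppargc1a (0.16) did not. Without normalization all 5 passed as higher, with means of 1.05, 1.09, 1.27 and 1.22 for these 4 and 0.51 for Ppargc1a. After loess the widest of the 5 intervals, that of Slc37a4, ran from -0.11 to 0.35 on the log2 scale.

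**Figure D3:**
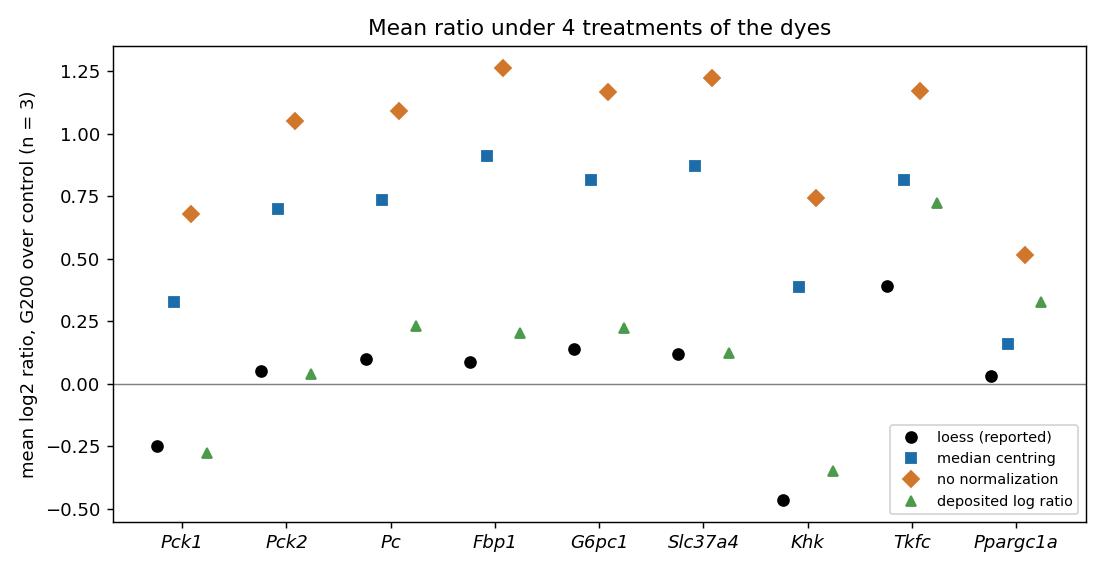
Mean log2 ratio of G200 over control for the 9 genes (vertical axis, n = 3 arrays) after loess, after median centring, without normalization between the dyes and as the deposited log ratio. Khk and Pck1 lie below 0 after loess and in the deposited ratio and above 0 under the other two treatments, while Tkfc lies above 0 under all 4.

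The treatment of the dyes changed the share of calls that were higher, and the number of the 9 genes called. With median centring 6 of the 9 genes passed, all as higher in G200, and without normalization 8 did, also all as higher. Of the 14179 genes, 4956 passed as higher and 1268 as lower with median centring, and 8010 and 304 without normalization. Over all genes the share of calls that were higher was 30.6% after loess, 79.6% with median centring and 96.3% without normalization, and 40.3% in the deposited log ratio. The median log2 ratio of the 9 genes was 0.74 and 1.09 under median centring and no normalization, each 0.47 above that of all genes. Of 61 genes of the lists below that fell after loess, 9 were above 0 with median centring, 22 without normalization and 0 in the deposited log ratio. None of the 25 genes that rose was below 0 under these 3 treatments. Median centring and no normalization raised the median of all genes from -0.05 to 0.27 and 0.62. A rise was thus likelier than a fall to keep its direction there, which also holds for the rises named below.

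The neighbouring steps of the path, shared with glycolysis or feeding it with oxaloacetate, were a list of 18 genes, all tested. Of these, 7 rose and 2 fell after loess, 13 rose and 0 fell with median centring, and none passed without replicate 3. Their median log2 ratio was 0.08 after loess, and 0.04 without replicate 2. It was 0.89 with median centring and 1.25 without normalization. The largest rises were in Mdh1 (0.57) and Mdh2 (0.46), the malate dehydrogenases of cytosol and mitochondrion, Slc25a11 (0.47), the carrier of malate and oxoglutarate, and Got2 (0.41), the mitochondrial aspartate aminotransferase. All 4 were also higher with median centring, without normalization and in the deposited log ratio. Fbp2, the muscle form of the bisphosphatase, fell by 0.40 and Gpi, the phosphoglucose isomerase, fell by 0.25. Gpi was at 0.48 and Fbp2 at -0.20 with median centring, and both were above 0 without normalization.

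Among 11 tested genes of 13 for fructose and polyol handling, none rose and 4 fell, with a median log2 ratio of -0.08 that was 0.35 with median centring, where 4 rose and 1 fell. Without replicate 3, none rose and 2 fell. The median was -0.02, -0.25 and -0.0055 without replicates 1, 2 and 3. Gckr, a regulatory protein that responds to fructose phosphate, fell by 2.55, and the carrier Slc2a2 fell by 1.02. Gpd1, glycerol phosphate dehydrogenase, fell by 0.35 and Mlxipl, the carbohydrate response factor ChREBP, fell by 0.24. Of these 4, Gckr alone passed in the same direction under all 4 treatments of the dyes. The fructose carrier Slc2a5 had log2 ratios of -0.28, 0.26 and -0.23 and did not pass after loess (adjusted p = 0.611), but it passed as higher with median centring (0.59) and without normalization (0.94).

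Of 14 tested genes of 16 that supply substrate, 3 rose and 4 fell, with a median of -0.08 that was 0.40 with median centring, where 6 rose and 1 fell. Without replicate 3, 1 rose and 1 fell, and the median was -0.04. Aqp7, the glycerol channel of the proximal tubule, rose by 0.74 and was the highest of the list. Lactate dehydrogenase Ldha rose by 0.34 and glutamate dehydrogenase Glud1 by 0.22. The falls were in alanine aminotransferase Gpt (-0.83), the citrate carrier Slc13a2 (-0.42), Gpd1 (-0.35) and glycerol kinase Gk (-0.34). The succinate carrier Slc13a3, which had the brightest probe, was at -0.06 after loess (adjusted p = 0.562) and passed as higher with median centring (0.74) and without normalization (1.09). Aqp7 was higher under all 4 treatments of the dyes, and Slc13a2, Gpd1 and Gk were above 0 with median centring.

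The opposing steps of glycolysis and pyruvate use had 13 tested genes of 19, of which 4 rose and 3 fell, with a median of -0.09 that was 0.54 with median centring, where 7 rose and 3 fell. Without replicate 3, 1 rose and 2 fell, and without replicate 1 the median was -0.05. Pfkp (0.47) and Pfkm (0.44), forms of phosphofructokinase, Pkm (0.30), a pyruvate kinase, and Pdha1 (0.46), a subunit of pyruvate dehydrogenase and the gene with the brightest probe, rose. All 4 kept that direction under the other treatments of the dyes. The falls included Gckr (-2.55). Pfkfb1, an enzyme that sets the regulatory fructose bisphosphate, was also lower, but its red spot was well above background on only 1 array, so the size of its fall is not given.

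Of 22 tested genes of 33 for transcriptional and hormonal control, 5 rose and 9 fell, with a median of -0.07 that was 0.13 with median centring, where 9 rose and none fell. Without normalization 11 rose and none fell, and without replicate 3 none rose and 1 fell. The median was -0.02 without replicate 1. Txnip, which is induced by glucose, rose by 0.69, Klf15, a factor that favours glucose production, and Pth1r, the parathyroid hormone receptor, each rose by 0.38, and Prkaa2, a subunit of AMP-activated kinase, rose by 0.37. The largest falls were in the glucagon receptor Gcgr (-0.73), the factor Cebpb (-0.57), the kinase Stk11 (-0.44) and the nuclear receptor Nr4a1 (-0.36). The catalytic subunit of protein kinase A, Prkaca, which had the brightest probe, fell by 0.26 after loess but was higher with median centring (0.47, adjusted p = 0.0398) and without normalization (0.83, adjusted p = 0.0134). The 4 named rises kept their direction under the other treatments of the dyes, while Cebpb and Nr4a1 were at 0.10 and 0.03 with median centring and all 4 named falls were above 0 without normalization.

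**Figure D4:**
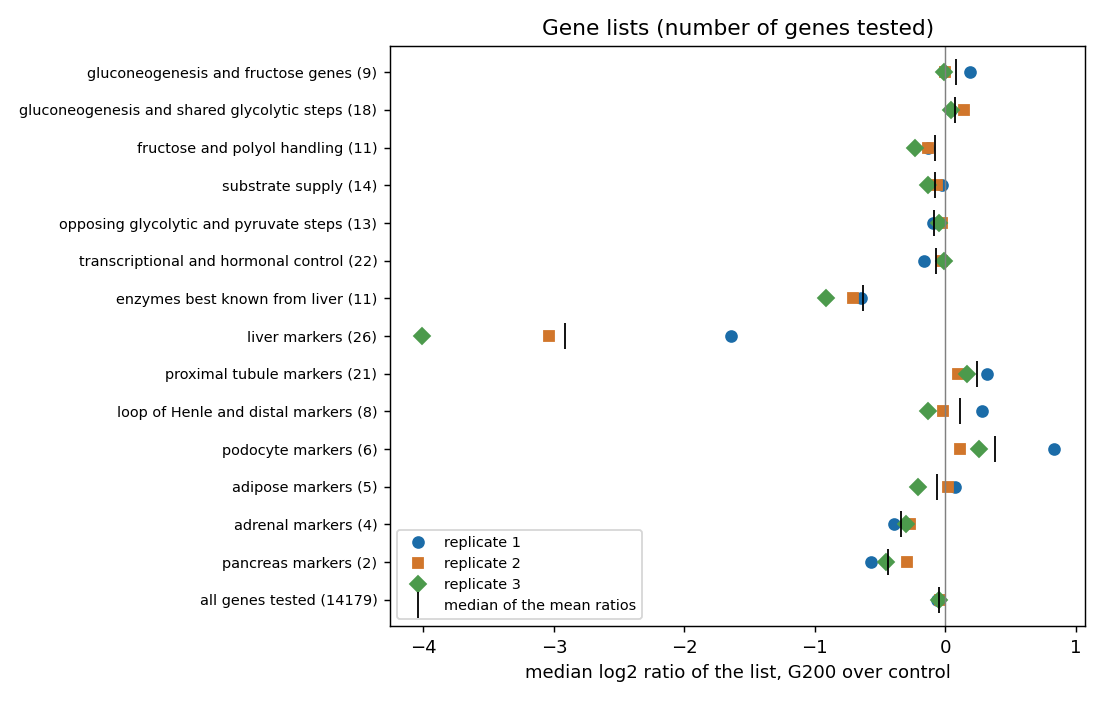
Median log2 ratio of G200 over control (horizontal axis) of the 9 genes, of 13 gene lists and of all genes tested, with a point for each of the 3 arrays and a tick for the median of the mean ratios. The liver markers lie at -1.65, -3.03 and -4.01 on replicates 1, 2 and 3, and the 9 genes lie between -0.01 and 0.19.

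Liver markers stood apart in the same arrays. All 26 tested of 28 fell, with a median log2 ratio of -2.92, and Cyp7a1 and Cyp8b1 did not pass the filter on dim probes. The 4 largest falls were in Alb (-3.82), Itih4 (-3.77), Ttr (-3.72) and Ambp (-3.35), of which Ttr had the brightest probe. The log2 of their summed level was 17.63, 17.82 and 17.88 in the control channel of replicates 1, 2 and 3. In the G200 channel it was 15.89, 14.50 and 13.28. The markers were thus high in the control channel of every array and lower in every G200 rat, least so on replicate 1. The median was also below 0 with median centring (-2.18) and without normalization of the dyes (-1.82). Under each of these treatments 22 of the 26 passed as lower, and 21 did after loess without replicate 2. The marker Proc was at 0.10 without normalization.

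Enzymes best known from liver moved the same way, with 9 of 11 tested genes of 15 lower, none higher and a median of -0.63. With median centring 6 were lower, and without normalization 3 were lower and 1 higher, with a median of -0.15. The median was -2.36 in the deposited log ratio. The falls included Hal of histidine breakdown (-1.86, with red well above background on 2 arrays), the liver glycogen synthase Gys2 (-1.67) and the liver glutaminase Gls2 (-1.40). Pklr, the liver and kidney pyruvate kinase and the gene with the brightest probe here, had log2 ratios of -0.64, -0.09 and -0.03 and did not pass after loess. It was at 0.31 with median centring and passed as higher without normalization (0.67). Of the 9 genes described here, all are active in both liver and kidney. After loess 1 of them, Khk, was lower, but it passed as higher with median centring and without normalization. The part of the liver markers in the results of Khk, Pck1, G6pc1, Gckr and Slc2a2 was not tested.

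Markers of kidney segments were measured on all arrays. Of 21 tested proximal tubule markers of 24, 4 rose and 1 fell, with a median of 0.24 that was 0.82 with median centring. The median was 0.14 without replicate 1. With median centring 16 rose and none fell, without normalization 20 rose and none fell, and without replicate 3 none passed. Anpep rose by 0.54, Cubn by 0.45, Aqp1 by 0.41 and Lrp2 by 0.26, and Miox fell by 0.25. Kap, which had the brightest probe, had 0.24, 0.77 and 0.12 on the 3 arrays and did not pass after loess, but passed as higher with median centring (1.30), without normalization (1.66) and in the deposited log ratio (0.64). The log2 of the summed level of the list was 17.97, 17.77 and 17.92 in the control channel and 18.05, 18.26 and 18.01 in the G200 channel, so the G200 channel was higher on each array. Miox was at 0.64 with median centring, which turned its direction.

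Of 8 tested loop of Henle and distal markers of 11, Umod, which had the brightest probe, rose by 0.87 and Slc4a1 fell by 0.68. Their median was 0.12, and -0.08 without replicate 1. With median centring 5 of the 8 rose and none fell, with a median of 0.65. Without normalization 6 rose and none fell, with a median of 1.00. Umod was higher under all 4 treatments of the dyes, while Slc4a1 was at -0.02 with median centring and 0.34 without normalization. The median of 6 podocyte markers was 0.38, and 0.20 without replicate 1. Of the 6, 1 passed as higher after loess, 3 with median centring and 5 without normalization. Among them Podxl (0.36, the brightest probe) did not pass after loess, though it did with median centring (1.05) and without normalization (1.40). Of 5 tested adipose markers of 8, Cfd fell by 0.79 but did not pass under any other treatment of the dyes, and Adipoq with the brightest probe was at -0.06, but passed as higher without normalization (0.67). The median of the adipose markers was -0.06 after loess, -0.13 without replicate 1 and 0.06 without replicate 3. It was 0.04 with median centring and 0.40 without normalization. Of 4 tested adrenal markers of 8, Cyp21a1 (-0.43), Th (-0.42) and Cyp17a1 (red well above background on only 1 array) fell, Hsd3b1 with the brightest probe was at 0.16 and passed as higher with median centring (0.53) and without normalization (0.88), and the median was -0.34. Of the 4, 1 passed as lower with median centring, none did without normalization or without replicate 3, and Cyp21a1 and Th were at 0.23 and 0.21 without normalization. Of 2 tested pancreas markers of 9, Ctrb1, the brighter, fell by 0.85 and Ins1 was at -0.03, with a median of -0.44. Ctrb1 was at -0.48 with median centring and -0.12 without normalization, where it did not pass. The part of these markers in the values of the 9 genes was not tested.

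The 3 named genes whose log2 ratios lay nearest to those of Khk over the 3 arrays, by Euclidean distance, were Gnl1 (0.039), Pitpnm1 (0.042) and Grb2 (0.054). Gnl1 had -0.69, -0.29 and -0.47 on replicates 1, 2 and 3. For Tkfc they were Hist1h2ail1 (0.025), Hspa13 (0.028) and the mitochondrial chaperonin Hspe1 (0.039). Hspe1 had 0.38, 0.26 and 0.49. The distance is given as a description of these arrays.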

How the data were processed

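The authors deposited the output of Agilent Feature Extraction (11.5.1.1 in the file headers, 9.3.2.1 in the submitters' processing notes), where each spot has a median intensity, with its local background, in green and in red. The log10 ratio (red over green) that the authors deposited, dye-normalized by Feature Extraction, was used as an alternative. Background was corrected with limma 3.58.1 in R 4.3.3 (normexp on all 44254 spots, offset 50), followed by loess within each array with control spots at weight 0. The planned mean spot intensity was replaced by the median, which the tables hold. Outlier spots (635, 736 and 945 on replicates 1, 2 and 3) were left out, and replicate spots were averaged. Accessions of 18355 of 30367 probes (60.4%) matched a RefSeq symbol. A probe was kept if green, or red, was well above background on each of the 3 arrays (15649 probes), the brightest stood for its gene, and 2 genes lacking a value on an array were left out. Coordinates are those of the RefSeq promoter table, since the array was designed on an older build. The mean log2 ratio of the 14179 genes was tested against 0 by limma (lmFit, eBayes; two-sided), and p-values were adjusted over all of them after Benjamini and Hochberg. Channel levels were taken after Aquantile normalization between arrays. The number of arrays limits the precision.

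The genes and the 13 lists were chosen with earlier results of these data known. The text names every gene of the 9 and, from each list, the gene with the brightest probe and up to 4 called genes in each direction with the largest mean ratio. Slc2a5 was named after its values were seen. Some genes that this rule would name are not reported here.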

Additional observations from a re-analysis of the deposited data

How the results depend on the processing

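The number of genes called over all genes was 8314 without normalization between the dyes, 2 by the methods' test on the log ratios with adjustment and 360 by the methods' test on both channels with adjustment, against 4472 and 4208 by the same tests unadjusted. It ran from 1575 to 4977 when a replicate was left out, lowest without replicate 3. Of the 9 genes, 6 were called with median centring, 8 without normalization, 1 with normexp at offset 0 and 1 in the deposited log ratio. The methods' tests with adjustment called 0 of the 9, and unadjusted 1 on the log ratios and 2 on both channels. Leaving out a replicate gave 0 to 3.

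Directions turned as follows. With median centring and without normalization the mean log2 ratio of Pck1 was 0.33 and 0.68 and that of Khk was 0.39 and 0.74. The dimmer probe of G6pc1, added after seeing the data, gave -0.12. Leaving out a replicate gave -0.23 to 0.34 for G6pc1, -0.034 to 0.11 for Pck2 and -0.0091 to 0.087 for Ppargc1a. The cause was not tested. Tkfc was higher under all 18 alternatives and passed in 15 of them. Khk was lower in 16 of 18 and passed as lower in 10, and in the other 2 it passed as higher. Pc, Fbp1 and Slc37a4 were above 0 under all 18. For Tkfc, Khk, Pc, Fbp1 and Slc37a4, these counts of direction include alternatives that left the mean log2 ratio unchanged. Those altered only the filter on dim probes, the averaging over probes, the outlier spots, the variance model or the test. In them the direction was fixed in advance. The mean ratio of these genes moved only with another background correction, another treatment of the dyes or a replicate left out. A fit with the slide as a block was not run, since there was 1 slide. Each ratio pairs both channels of an array, and a fit of separate channels without that pairing called 4102 genes, 2 of them among the 9. That fit and the methods' tests on both channels treat the 3 readings of the control as 3 samples, while the control was counted as 1, so their p-values do not carry the spread among control rats. Signals near background limit Tkfc, Ppargc1a and the dimmer probe of G6pc1.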
